A study of Rattus with 4 samples.

Results

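Small families of nuclear protein kinases, 3 in number, were followed through RNA immunoprecipitation sequencing of the RNA-binding protein NONO in cultured rat heart cells. The genes were the CDC2-like kinases Clk1, Clk2, Clk3 and Clk4, the dual-specificity tyrosine-regulated kinases Dyrk1a, Dyrk1b and Dyrk2, and the homeodomain-interacting kinases Hipk1, Hipk2 and Hipk3. They were chosen by family name and found by gene symbol, and all 10 were among the 13731 genes listed.

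All 10 belong to the CMGC group, the branch of the kinase tree that also holds the cyclin-dependent, MAP and GSK3 kinases. CLK proteins phosphorylate SR proteins, the serine- and arginine-rich splicing factors stored in nuclear speckles, and transcripts of Clk1 and Clk4 are known for introns that stay unspliced in the nucleus. DYRK proteins phosphorylate a tyrosine of their own activation loop while folding and then act on serines and threonines of other proteins. DYRK1A drives NFAT transcription factors out of the nucleus, opposing calcineurin, a circuit much studied in cardiac hypertrophy. HIPK proteins bind homeodomain factors, p53 and transcriptional corepressors, and their turnover is controlled by SIAH ubiquitin ligases.

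NONO is a nuclear DBHS-family protein that binds RNA and takes part in splicing and in building paraspeckles. The title of the series asks where on pre-mRNA NONO binds and how it affects splicing; the files used here hold 1 value per gene and library, so exon and intron positions could not be addressed. Each of the 2 groups had 2 libraries. The Input libraries were labelled as cells given an empty vector, with no antibody; the NONO IP libraries were labelled as NONO siRNA and as precipitated with anti-NONO. Knockdown and precipitation therefore cannot be told apart, and no control-antibody library was analysed here. All libraries came from one cell line, called a cardiac fibroblast line in the growth protocol and H9C2, a rat heart myoblast line, in the titles; all were selected for polyadenylated RNA. Nothing says that replicates were separate cultures, so p-values measure only the spread between these libraries, which may be technical.

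Gene reads summed to 249548 and 238776 in the Input and to 279410 and 264059 in the NONO IP. Of the fibroblast markers checked, 9 of 10 were listed, with 38075 Input and 39711 NONO IP reads, most of them collagen (Col1a1 20647 and 23201), whereas Tcf21 had 5 and 8 and Dcn 4 and 0. Read sums in this paragraph are unscaled. By edgeR at an adjusted p under 0.05, 7 fibroblast markers were tested, with 1 higher and 5 lower. Col1a1 was among the lower, at a log2 fold change of −0.42 after scaling. Over all tested genes 29.8% were called higher and 26.9% lower. Cardiomyocyte markers (9 of 12 listed) had 279 and 550 reads; by edgeR (adjusted p under 0.05) Atp2a2 (176 and 399) was higher, Myh6 (21 and 13) and Myh7 (20 and 4) were lower, and Tnnt2 (55 and 123) was not called. Smooth muscle markers (6 of 7) had 1682 and 1062, skeletal myoblast markers (2 of 8) 21 and 7, endothelial markers (2 of 6) 2 and 3, and macrophage and leukocyte markers (4 of 6) 27 and 3. Of the smooth muscle markers 5 were tested, and all 5 were called lower. Myod1, Myf5, Myog and Pax7, which define skeletal myoblasts, were not listed. Nono itself, the gene named by the siRNA, had 21 and 9 reads in the Input and 3 in each NONO IP library, a scaled ratio of 0.133 (exact 95% interval 0.0453 to 0.325). The part of cell composition and of the Nono level in the results below was not tested.

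Dyrk1a and Dyrk2 were higher in the NONO IP than in the Input, and no tested member was lower. Reads of the 3 DYRK genes together were 3.80-fold higher (exact 95% interval 2.92 to 5.00), those of the 3 HIPK genes 1.21-fold (0.949 to 1.56) and those of the 4 CLK genes 0.999-fold (0.593 to 1.71). Only the DYRK interval lay away from 1. In these bulk libraries, fewer cells of a type and less RNA per cell cannot be told apart. The ratios were taken on reads scaled by TMM, a factor per library chosen so that most genes show no change. The intervals cover counting error only, since reads were summed over both libraries of a group, which leaves out the spread between libraries. Reads carried no molecular identifiers, so counting error itself may be larger.

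Taken singly, 5 members had enough reads for the test across genes (Dyrk1a, Dyrk2, Hipk1, Hipk2 and Hipk3) and 5 did not (the 4 CLK genes and Dyrk1b). With edgeR's quasi-likelihood test and Benjamini-Hochberg adjustment over 2920 genes, 2 of the 5 were called higher and 0 lower at an adjusted p under 0.05; none of the 5 had a negative fitted value, and DESeq2 called 0 lower too. Over all tested genes 29.8% were called higher and 26.9% lower, so a count of 2 in 5 does not set the members apart. The median log2 fold change was 0.46 over these 5 members and 0.02 over all tested genes. The count filter works by reads in any 2 libraries, and 4 of the 5 would have passed on the Input alone; Dyrk1a passed only through its NONO IP reads.

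Dyrk1a, on chromosome 11, had 11 and 9 Input reads, against 126 and 93 after precipitation. As CPM, that is counts divided by the scaled size of their library, these were 56.7 and 47.6 against 427 and 332. Both NONO IP libraries lay far above both Input libraries, and the gap was much wider than the distance between replicates. The mean rose from 52.1 ± 6.39 to 379 ± 66.8 CPM (SD, n = 2 each), a log2 fold change of 2.85 (SE 0.27, edgeR adjusted p = 1.3e-07). From summed reads the ratio was 7.29 (exact 95% interval 4.61 to 12.2). Dyrk1a ranked 157 among the 2920 tested genes by fold change, at percentile 94.6, and 83 among the 2777 that code for protein.

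Dyrk2 encodes a kinase that also serves as the scaffold of an E3 ubiquitin ligase and phosphorylates p53. This gene on chromosome 7 had 25 and 16 reads in the Input and 82 and 68 in the NONO IP, or 129 and 84.7 CPM against 278 and 243. The groups did not overlap, although the Input libraries differed from each other by more, in proportion, than the NONO IP libraries did. The mean rose from 107 ± 31.2 to 260.3 ± 24.6 CPM (SD, n = 2), with a log2 fold change of 1.28 (SE 0.25, edgeR adjusted p = 0.000353) and a ratio of summed reads of 2.44 (1.71 to 3.53). It stood at percentile 78.7 of the tested genes, rank 622. On the deposited RPKM values Dyrk2 lost its call, with a log2(RPKM + 1) difference of 0.59 (limma adjusted p = 0.182). The median of all genes was −0.61 on that scale.

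Dyrk1b, a kinase known from quiescent and differentiating muscle cells, sits on chromosome 1 and had 4 and 2 reads against 7 and 6. The NONO IP values were 22.6 ± 1.60 CPM and the Input values 15.6 ± 7.09 CPM (SD, n = 2). A count of 3 reads equals 15.5 and 15.9 CPM in the Input libraries and 10.2 and 10.7 CPM in the NONO IP libraries, so Dyrk1b lay near that floor. Its ratio of 1.44 had an interval from 0.512 to 4.63, which holds both no change and a rise larger than that of Dyrk2.

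The HIPK genes were the most evenly covered of the 3 families, and none passed the test. Hipk1, whose product phosphorylates homeodomain factors and p53, lies on chromosome 2 and had 16 and 15 reads against 35 and 29. In CPM these were 82.4 and 79.4 against 119 and 104, so both NONO IP libraries were above both Input libraries. Its log2 fold change of 0.46 (SE 0.30) missed the threshold (edgeR adjusted p = 0.211), and the ratio was 1.37 (0.882 to 2.18). Scaled to library totals alone, which put the median of all genes at 0.48 and called 41.7% of them higher and 15.2% lower, Hipk1 was at 0.92 with an edgeR adjusted p of 0.0148.

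Hipk2, the family member best known for phosphorylating p53 after DNA damage, is on chromosome 4 and had 12 and 14 reads against 29 and 19. Its CPM of 61.8 and 74.1 in the Input overlapped 98.2 and 67.9 in the NONO IP. The fitted log2 fold change of 0.29 (SE 0.36) had an edgeR adjusted p of 0.501, with a ratio of 1.23 (0.748 to 2.06). Hipk3, a kinase described as binding Fas and FADD, is on chromosome 3 and had 18 and 27 reads against 34 and 40. These were 92.7 and 143 CPM in the Input and 115 and 143 CPM in the NONO IP, with a log2 fold change of 0.13 (SE 0.29, edgeR adjusted p = 0.723) and a ratio of 1.10 (0.746 to 1.62). One library of each group therefore shared the top value of Hipk3. On log2(RPKM + 1) all HIPK genes had the opposite sign, with −0.16 for Hipk1, −0.34 for Hipk2 and −0.43 for Hipk3, each less negative than the median of all genes on that scale. No direction is given for this family for that reason.

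Of the 5 tested members, 3 (Dyrk1a, Dyrk2 and Hipk1) had both NONO IP libraries above both Input libraries in CPM, which 40.6% of all tested genes had too. None had both below, against 37.3% of tested genes.

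**Figure D1:**
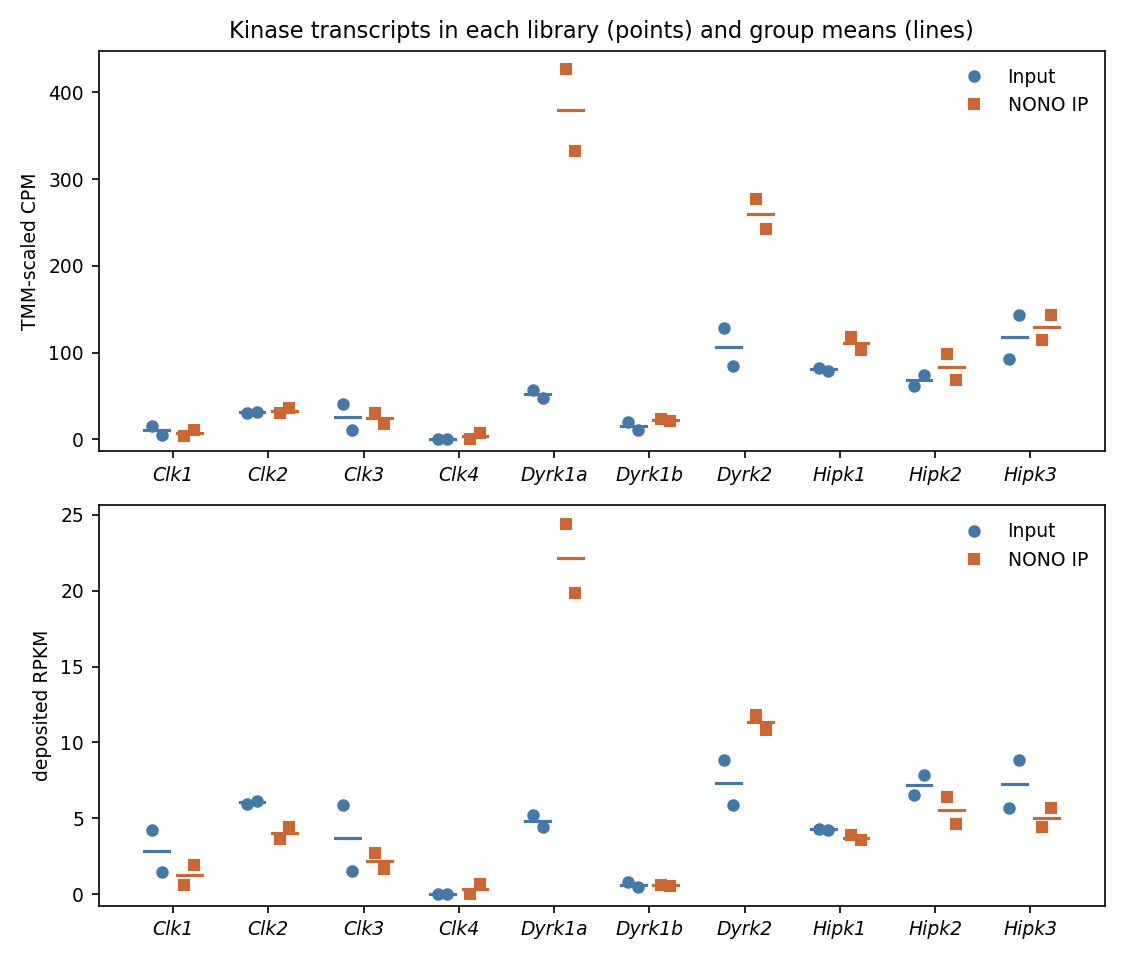
CPM (upper panel) and deposited RPKM (lower panel) of each kinase gene in the 2 Input and 2 NONO IP libraries, 1 point per library, with group means as lines. Dyrk1a and Dyrk2 have NONO IP points above their Input points, the HIPK points lie close together or overlap, and the CLK genes and Dyrk1b are lowest in CPM.

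The CLK genes gave few reads in any library. Clk2, on chromosome 2, was the most even, with 6 and 6 reads against 9 and 10, or 31.3 ± 0.595 and 33.1 ± 3.71 CPM (SD, n = 2). Its ratio of 1.05 had an exact 95% interval from 0.486 to 2.38. Clk3, on chromosome 8, had 8 and 2 reads against 9 and 5, and in each group 1 library held most of them. Its ratio was 0.932 (0.385 to 2.35).

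Clk1, on chromosome 9, is the best studied of the family and had 3 and 1 reads against 1 and 3, a ratio of 0.666 (0.124 to 3.58). Clk4, on chromosome 10, had no Input read and 0 and 2 NONO IP reads, which is at the floor of 3 reads, so no fold is given. Without a count filter, edgeR's fit over all 13731 genes called none of the CLK genes or Dyrk1b. There the log2 fold changes were −0.35 for Clk1 (SE 1.00), 0.29 for Clk2 (SE 0.54), 0.11 for Clk3 (SE 0.62) and 0.73 for Dyrk1b (SE 0.68), with adjusted p-values between 0.658 (Dyrk1b) and 0.930 (Clk3). In that fit 8.59% of genes were called higher and 4.73% lower. Single libraries moved the smallest counts. The Clk3 ratio was 2.30 without Input replicate 1 and 0.591 without Input replicate 2. The Clk1 ratio was 1.31 without Input replicate 1. Leaving out NONO IP replicate 1 gave 1.03 for Clk1, and leaving out the other NONO IP library gave 0.324. The Clk1 interval held a change of the size seen for Dyrk2, so none of that size could be told apart there at this depth. The intervals of Clk2 and Clk3 ended just below the Dyrk2 ratio of 2.44, but within its own interval (1.71 to 3.53). A rise in the lower part of that interval therefore could not be told apart for them either. These intervals cover counting error only, and the Clk3 ratio moved with single libraries.

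Across all 10 genes, members took 103 and 92 reads of the Input libraries (0.0413% and 0.0385%) and 332 and 275 of the NONO IP libraries (0.119% and 0.104%). The joint ratio of 2.07 (exact 95% interval 1.76 to 2.45) was carried by the DYRK genes, which supplied 382 of the NONO IP reads against 67 of the Input reads, while HIPK genes supplied 186 against 102 and CLK genes 39 against 26.

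**Figure D2:**
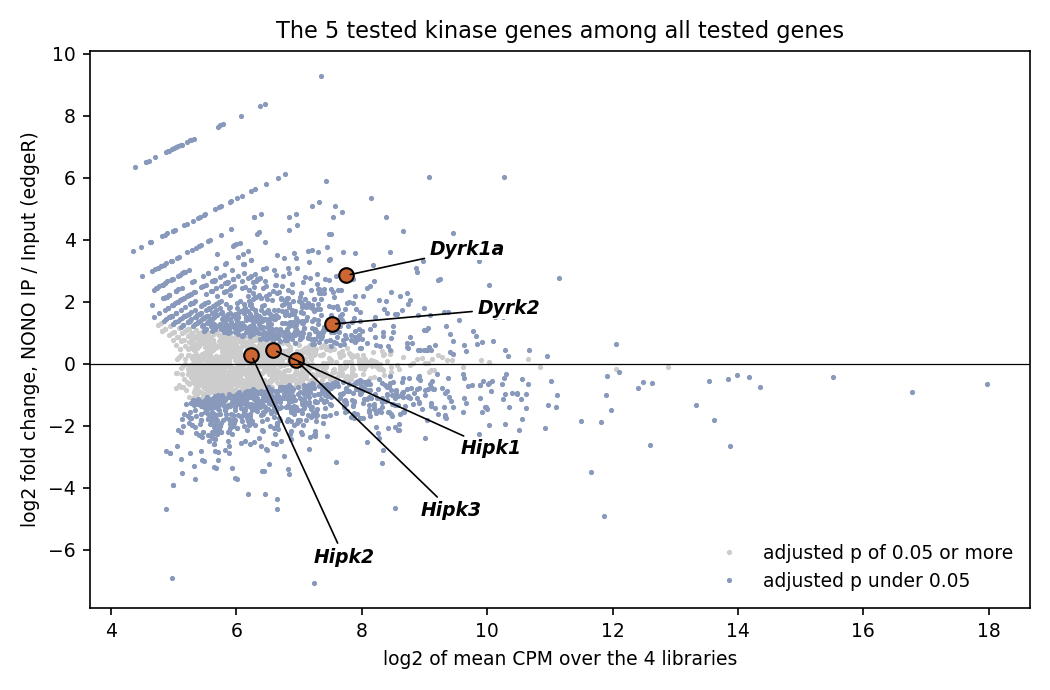
Log2 fold change (NONO IP over Input) against the log2 mean CPM over the 4 libraries for the 2920 tested genes, 1 point per gene. The 5 tested kinase genes are orange points ringed in black. Other genes are blue where the edgeR adjusted p was under 0.05 and grey elsewhere. Dyrk1a (2.85) lies in the upper part of the cloud and Dyrk2 (1.28) below it, while the HIPK genes (0.13 to 0.46) lie in its grey centre.

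Differences between members of the same library do not depend on how libraries were scaled, so they were compared next, over the 10 pairs of the 5 tested genes. The log2 fold change of Dyrk1a exceeded that of Dyrk2 by 1.57 (approximate 95% interval 0.80 to 2.35). It exceeded that of Hipk1 by 2.40 (1.54 to 3.25), of Hipk2 by 2.56 (1.61 to 3.50) and of Hipk3 by 2.72 (1.89 to 3.56). Dyrk1a thus stood above each other tested member by more than the error of the difference. Under the alternative settings the gap between Dyrk1a and Dyrk2 ranged from 1.37 to 1.72.

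For Dyrk2 the differences were smaller, at 0.82 from Hipk1 (−0.01 to 1.65), 0.99 from Hipk2 (0.07 to 1.90) and 1.15 from Hipk3 (0.34 to 1.96). Without Input replicate 2 the latter pair fell to 0.59 for Hipk2 and 0.54 for Hipk3, with intervals that hold 0. The interval from Hipk2 held 0 in 7 of 15 settings (also with DESeq2's Wald test, on both RPKM scales, with the length offset and without NONO IP replicate 2, at 0.84). That from Hipk3 held 0 in 5 of 15 (also with DESeq2's Wald test, on both RPKM scales and without NONO IP replicate 1, at 0.90), and that from Hipk1 left 0 out in 7 of 15. Among the HIPK genes each interval held 0, with 0.16 for Hipk1 over Hipk2 (−0.83 to 1.15), 0.33 for Hipk1 over Hipk3 (−0.56 to 1.21) and 0.16 for Hipk2 over Hipk3 (−0.80 to 1.13). These intervals still allow differences of about the size seen between Dyrk2 and the HIPK genes. The intervals were not adjusted for the number of pairs.

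The same contrast appears inside the DYRK family as a change of composition. Dyrk1a held 27.5% (Wilson 95% interval 16.1 to 42.8) and 33.3% (18.6 to 52.2) of the DYRK reads in the Input libraries. In the NONO IP libraries it held 58.6% (51.9 to 65.0) and 55.7% (48.1 to 63.0). Dyrk2 held 62.5% and 59.3% of the Input reads and 38.1% and 40.7% of the NONO IP reads, so the leading gene of the family changed. Dyrk1b held 4 of 40 and 2 of 27 Input reads and then 3.26% and 3.59%. Counted per gene length, as shares of summed RPKM, Dyrk1a held a mean of 38.2% in the Input and 64.9% in the NONO IP.

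HIPK composition moved little beside this. Hipk1 held 34.8% and 26.8% of HIPK reads in the Input and 35.7% and 33.0% in the NONO IP, Hipk2 26.1% and 25.0% and then 29.6% and 21.6%, and Hipk3 39.1% and 48.2% and then 34.7% and 45.5%. For each HIPK gene the range of the 2 groups overlapped. Clk2 held 6 of 17 and 6 of 9 CLK reads in the Input and 9 of 19 and 10 of 20 in the NONO IP, and Clk3 held 8 and 2 and then 9 and 5 of the same totals.

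**Figure D3:**
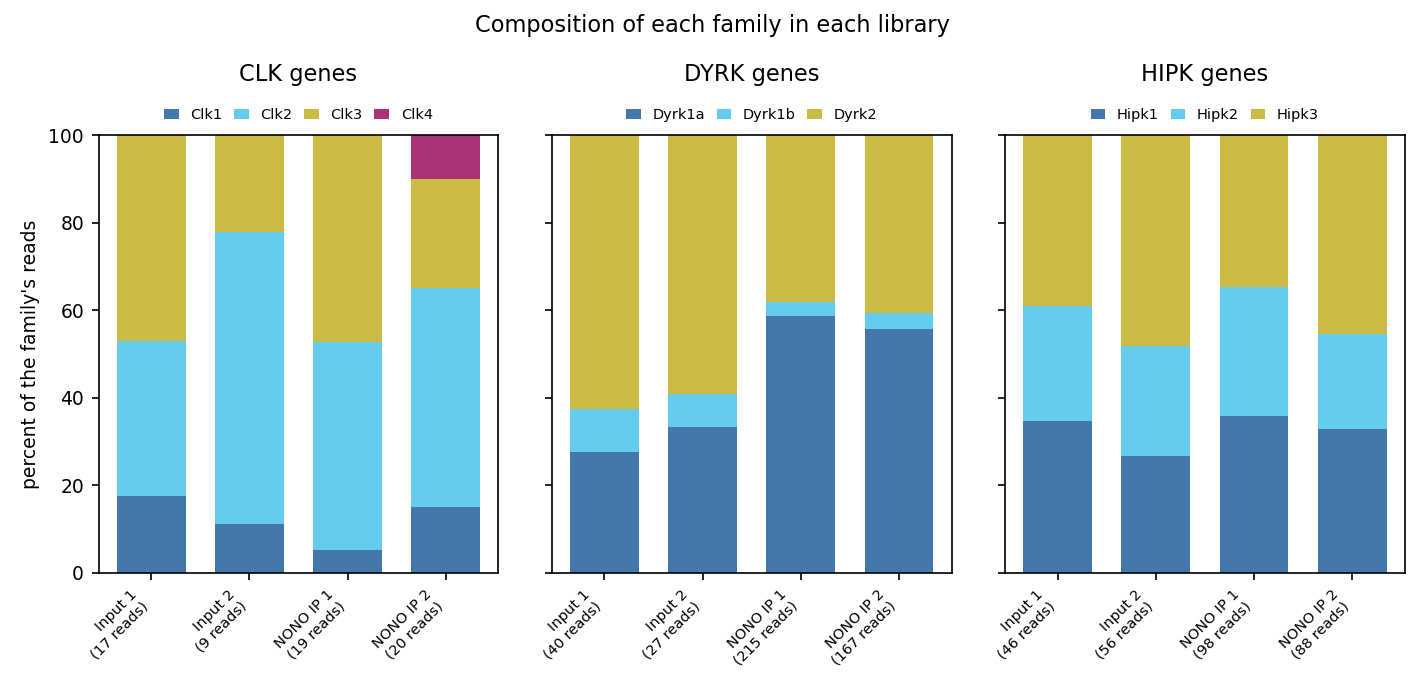
Percent of each family's reads held by each gene (stacked bars to 100) in each of the 4 libraries, with the family's reads under each bar. Dyrk1a grows from 27.5% and 33.3% of DYRK reads in the Input to 58.6% and 55.7% in the NONO IP, while the HIPK bars look alike and the CLK bars vary within groups.

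Levels of different genes can be compared only per gene length, for which the deposited RPKM values (reads scaled by gene length and library total) were used. In the Input the order by mean RPKM was Dyrk2 (7.34), Hipk3 (7.27), Hipk2 (7.18), Clk2 (6.04), Dyrk1a (4.83), Hipk1 (4.26), Clk3 (3.71), Clk1 (2.83), Dyrk1b (0.625) and Clk4 (0). The first 3 overlapped each other, with single libraries between 5.69 and 8.84, and Clk2 (5.93 and 6.15) lay within the range of Hipk3. Dyrk1a (5.22 and 4.43) and Hipk1 (4.32 and 4.2) lay apart from each other, but both fell within the wide range of Clk3 (5.89 and 1.53), which in turn overlapped Clk1 (4.2 and 1.45). Dyrk1b, at 0.82 and 0.43, was below each library of each gene but Clk4. That place rests on its length, by reads per RPKM the longest of the members at 4.79 times that of Clk2. In CPM its Input mean (15.6) was above that of Clk1 (10.4).

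In the NONO IP the order was led by Dyrk1a (24.41 and 19.86 RPKM, mean 22.1 ± 3.22, SD, n = 2) and Dyrk2 (11.82 and 10.81, mean 11.3). Both were clear of the rest, whose highest single value was 6.41 for Hipk2. Hipk2 (mean 5.52), Hipk3 (5.04), Clk2 (4.04) and Hipk1 (3.70) followed, each overlapping or nearly touching the next, and then Clk3 (2.19), Clk1 (1.23), Dyrk1b (0.575) and Clk4 (0.32). Dyrk1a thus moved from rank 5 of the 10 genes in the Input to rank 1 in the NONO IP, whereas Clk3, Clk1, Dyrk1b and Clk4 kept the last 4 places.

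The direction of the smaller differences hangs on the scale. Dividing reads by RPKM gives the library total each RPKM was scaled by, and for the NONO IP libraries that total was 2.38 times that of the Input, whereas their gene reads were nearly equal. In consequence 8 of the 10 genes had a higher mean CPM in the NONO IP, while 7 of the 10 had a lower mean RPKM. Dyrk1a and Dyrk2 had the higher mean in the NONO IP on both, as did Clk4 with its 2 reads. Dyrk1a was at 1.99 on log2(RPKM + 1) (SE 0.22, limma adjusted p = 0.0156), where 5.19% of 7576 genes were called higher and 18.8% lower.

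A correction for gene length was also set beside the main values. From reads per RPKM, Dyrk1a was 2.08 times and Dyrk2 2.80 times as long as Clk2, at percentiles 57.5 and 73.9 of the tested genes, while Hipk1 (3.66 times), Hipk3 (3.13 times) and Hipk2 (1.83 times) stood at percentiles 83.5, 78.2 and 49.8. With a length offset in edgeR, Dyrk1a was at 2.62 (adjusted p = 8.06e-06) and Dyrk2 at 0.97 (adjusted p = 0.00648). Hipk1 was then at 0.01, Hipk2 at 0.09 and Hipk3 at −0.23, beside a median of −0.11 over all genes, of which 22.0% were called higher and 26.8% lower.

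**Figure D4:**
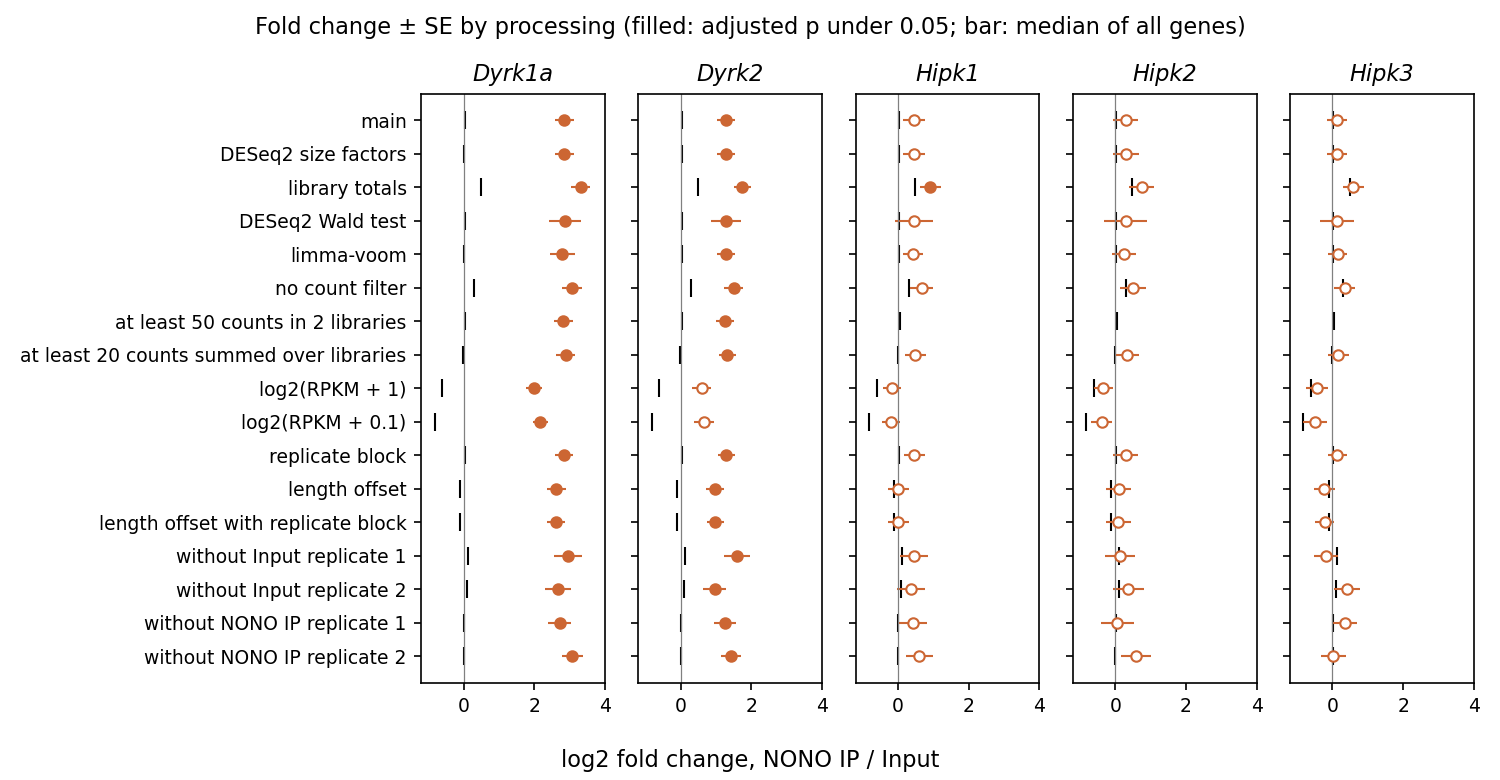
Log2 fold change of each of the 5 tested kinase genes under the main analysis and each alternative setting, with the median of all tested genes in the same setting. Dyrk1a lies between 1.99 and 3.31 and Dyrk2 between 0.59 and 1.74, both above the median of all genes in each setting, while the HIPK genes fall on both sides of 0.

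The genes whose 4 library values were most like those of a member were then listed, by the distance of log2(CPM + 1) over the 4 libraries among 11622 protein-coding genes. Nearest to Dyrk1a were Aebp2, a cofactor of Polycomb repressive complexes, at a distance of 0.658 (11 and 13 reads, then 104 and 76), and Sh3bp5, a guanine exchange factor for Rab11, at 0.661 (11 and 9, then 81 and 82). These were the widest distances among the members with at least 20 reads. How many genes lay near Dyrk1a was not counted. Nearest to Dyrk2 were Ppp1r12a, the targeting subunit of myosin phosphatase, at 0.263 (24 and 18, then 76 and 76), and Bcl2l1, which encodes BCL-XL, at 0.350.

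For the HIPK genes the nearest were Myrf (0.133) and Pygo2 (0.143) for Hipk1, Ankrd12 (0.186) and Fam171a1 (0.299) for Hipk2, and Pappa1 and Irs2 (both 0.238) for Hipk3. Clk2 had Dock9 (0.164) and Mbd1 (0.221), and Clk3 had Cacnb3 (0.147) and Slc31a1 (0.166). The likeness is one of level and pattern over 4 libraries.

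Reads of overlapping or neighbouring genes could be assigned to a member, so the gene order of the RefSeq assembly GRCr8 was read for names. In GRCr8 no gene overlapped Dyrk1a, Dyrk1b, Dyrk2, Hipk2, Hipk3, Clk1 or Clk3. Clk2 was overlapped by Mir3541, Clk4 by Msantd5 and Hipk1 by 2 long noncoding genes, none of which was a row of the table. Next to Dyrk1a, Vps26c had 3 and 2 reads against 0 and 1. Ttc3, which encodes a ubiquitin ligase, had 18 and 26 against 66 and 58, a log2 fold change of 0.90 (SE 0.26, edgeR adjusted p = 0.00654) that fell to 0.03 with the length offset and to 0.62 (adjusted p = 0.132) without Input replicate 1. Next to Dyrk2, Cand1, a cullin regulator, had 12 and 12 reads against 4 and 10. Its fitted value was −1.35 (SE 0.46, edgeR adjusted p = 0.0199) and lost the call without either Input library or without NONO IP replicate 1 (−0.74). Whether reads of these neighbours were assigned to a member was not tested. The submitters' notes named a different build, mRatBN7.2, so overlaps in the annotation that was counted are not known.

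Relatives outside the 10 were few. Hipk4 had 0 Input reads and 2 and 1 NONO IP reads, at the floor, and Dyrk3 and Dyrk4 were not rows of the table under those symbols.

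Of 7 other kinases that act on splicing or on the transcription of spliced genes, 6 were listed and 2 tested, with 1 higher and 0 lower. Among all tested genes 29.8% were higher and 26.9% lower. Cdk13, a kinase of the RNA polymerase II tail, had 35 and 30 reads against 98 and 90, a log2 fold change of 0.94 (SE 0.20, edgeR adjusted p = 0.00065). With the length offset it was at 0.27 (adjusted p = 0.271). Cdk11b had 10 and 7 reads against 14 and 11 and a fitted value of −0.03. Those below the filter were the SR protein kinases Srpk1 (7 and 4, then 5 and 12) and Srpk2 (5 and 4, then 5 and 13), Prpf4b (7 and 5, then 3 and 0) and Cdk12 (8 and 9, then 15 and 7). Neither SRPK gene had NONO IP reads that were both above the Input.

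The next list held the SR proteins and their relatives, the substrates of CLK kinases. Of 18, 17 were listed and 9 tested, of which 1 was higher and 3 were lower, beside 29.8% and 26.9% of all tested genes. The median was −0.38 on the log2 scale. Without the count filter the median of the 17 was −0.25, beside 0.30 over all genes. Son, a large speckle scaffold, had 101 and 132 reads against 64 and 54, with a log2 fold change of −1.57 (SE 0.18, edgeR adjusted p = 1.2e-06). Srrm2, the other speckle scaffold, had 108 and 94 against 61 and 60 and was at −1.32 (SE 0.17, adjusted p = 3.81e-06). The SR protein gene Srsf2 had 36 and 46 against 17 and 18, at −1.81 (SE 0.28, adjusted p = 4.39e-05). The member that rose was Tra2a, a splicing activator, with 3 and 5 reads against 49 and 28 and a log2 fold change of 2.65 (SE 0.46, adjusted p = 0.00011); on log2(RPKM + 1) it lost the call (1.24, limma adjusted p = 0.0717). Tra2a passed the count filter only through its NONO IP reads, and 5 of the 9 would have passed on the Input alone. The 3 lower calls held in each setting that tested those genes.

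Partners and substrates of DYRK kinases numbered 15, all listed, with 5 tested, 3 higher and 1 lower and a median of 1.77. Over all tested genes 29.8% were called higher and 26.9% lower. Without the count filter the median of the 15 was 0.77, beside 0.30 over all genes. Nfatc1, a calcineurin-dependent factor that DYRK1A inactivates, had 14 and 13 reads against 72 and 67, a log2 fold change of 1.77 (SE 0.27, edgeR adjusted p = 3.05e-05). Rcan1, a calcineurin inhibitor and DYRK1A substrate, had 8 and 4 against 34 and 29 and was at 1.79 (SE 0.41, adjusted p = 0.00125). Foxo1, a forkhead factor, had 4 and 13 against 48 and 48, at 1.90 (SE 0.37, adjusted p = 0.000345), which became 1.24 without Input replicate 1 and 2.93 without Input replicate 2. On log2(RPKM + 1), Rcan1 (1.09) and Foxo1 (1.07) lost their calls, with limma adjusted p-values of 0.0913 and 0.168. Sf3b1, a core subunit of the U2 snRNP, fell from 28 and 25 reads to 7 and 8, a log2 fold change of −2.38 (SE 0.37, edgeR adjusted p = 4.02e-05). Only 3 of these 5 would have passed the filter on the Input alone.

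Of 20 partners and substrates of HIPK kinases, all were listed and 9 tested, with 4 higher, 1 lower and a median of 0.59. Over all tested genes 29.8% were called higher and 26.9% lower. Without the count filter the median of the 20 was 0.23, beside 0.30 over all genes. Of these 9, 5 would have passed the filter on the Input alone; the higher calls Siah1, Zbtb4 and Tcf7l1 passed only through their NONO IP reads. Siah1, the ubiquitin ligase that turns over HIPK2, had 2 and 2 reads against 47 and 31, with a log2 fold change of 3.63 (SE 0.51, edgeR adjusted p = 1.2e-05). Zbtb4, a methyl-DNA-binding repressor, had 7 and 6 against 30 and 31, at 1.63 (SE 0.39, adjusted p = 0.00177). The acetyltransferase gene Crebbp had 14 and 24 against 57 and 61, at 1.04 (SE 0.28, adjusted p = 0.0045), and lost the call in 6 of 16 settings, among them without Input replicate 1 (0.66, adjusted p = 0.113) and with the length offset (0.56, adjusted p = 0.122). Ctbp1, a corepressor that HIPK2 marks for degradation, had 24 and 49 against 21 and 32, at −1.04 (SE 0.33, adjusted p = 0.0131). In CPM both NONO IP values (71.1 and 114) were below both Input values (124 and 259). The call was lost in 8 of 15 settings, among them without Input replicate 2 (−0.48, adjusted p = 0.299), without NONO IP replicate 1 (−0.67), with the length offset (−0.80), without the count filter (−0.82), with library totals (−0.59) and on both RPKM scales. The remaining call, Tcf7l1, named after its values were seen, was at 0.99 (adjusted p = 0.0258), and lost it without either Input library or without NONO IP replicate 2.

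Among 38 other CMGC kinases, 31 were listed and 10 tested, with 5 higher and 0 lower and a median of 0.85. The shares over all tested genes were 29.8% higher and 26.9% lower. Without the count filter the median of the 31 was 0.58, beside 0.30 over all genes. Cdk17, a PCTAIRE kinase, had 6 and 12 reads against 112 and 66, a log2 fold change of 2.70 (SE 0.35, edgeR adjusted p = 4.53e-06), close to that of Dyrk1a. Cdk6, a cyclin D partner, had 10 and 7 against 39 and 28, at 1.38 (SE 0.36, adjusted p = 0.00393). Gsk3b had 30 and 34 against 94 and 71, at 0.78 (SE 0.22, adjusted p = 0.00563), and its paralogue Gsk3a had 10 and 10 against 40 and 29, at 1.19 (SE 0.34, adjusted p = 0.00688). The remaining call, Cdk14, named after its values were seen, was at 1.02 (adjusted p = 0.0365).

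Each of the 5 calls was lost in some setting, that of Cdk17 on log2(RPKM + 0.1) alone (2.06, limma adjusted p = 0.0685). Cdk6, Gsk3b and Cdk14 lost them with the length offset (0.67, 0.37 and 0.73), Gsk3b without Input replicate 1 (0.64), Gsk3a without NONO IP replicate 1 (1.04), and Cdk14 without either Input library or NONO IP replicate 1. On log2(RPKM + 1) and with DESeq2's Wald test, Siah1 and Cdk17 were called higher, while Zbtb4, Crebbp, Tcf7l1, Cdk6, Gsk3a, Gsk3b and Cdk14 were not. Only 3 of the 10 tested CMGC genes would have passed the filter on the Input alone. Dyrk1a and Cdk17 had the largest fold changes of the 17 tested kinases, members included. Neither would have passed the filter on the Input alone, and nor would Cdk6 or Cdk14. That ranking therefore cannot be read apart from the filter.

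**Figure D5:**
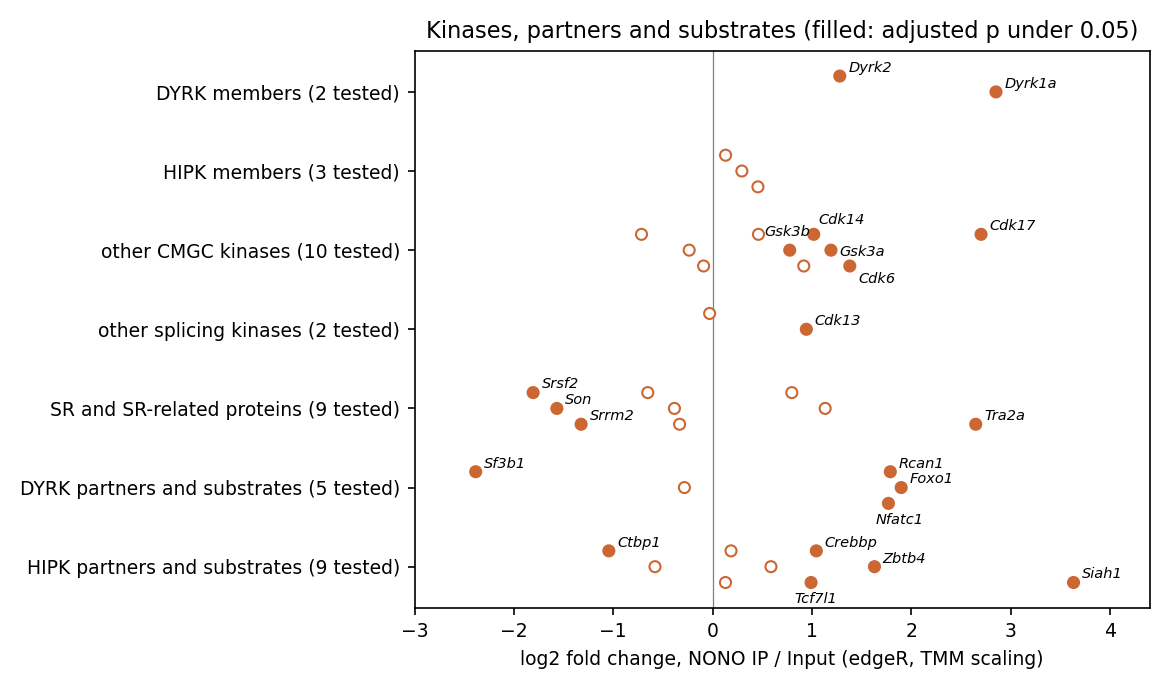
Log2 fold change (NONO IP over Input, TMM scaling) of each tested gene of the DYRK and HIPK families and of the related gene lists, 1 point per gene, filled where the edgeR adjusted p is under 0.05. Points of the kinase lists called are all to the right of 0, while Son, Srrm2, Srsf2, Sf3b1 and Ctbp1 lie to the left.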

How the data were processed

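Whole-read counts per gene and RPKM values for 13731 genes in 4 libraries were used as the authors deposited them. RPKM, reads scaled by gene length and library total, were named so per the file headers. HISAT2, HOMER and the build mRatBN7.2 were named without roles, per the submitters' processing notes; for the read counter, its strand setting and its handling of multiply placed reads the sources used here give nothing, so paralogous and overlapping genes are uncertain. Groups came from the sample titles.

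The main test was edgeR 4.0.16 (R 4.3.3; glmQLFit and glmQLFTest, TMM factors of 0.844 and 0.861 for Input and 1.17 and 1.18 for NONO IP) after filterByExpr, which kept 2920 genes with 91.1% of all counts. P-values were adjusted by Benjamini-Hochberg over all tested genes, with a threshold of 0.05. The procedure was also run on simulated counts in which few genes changed, equally in both directions. That run cannot show how the TMM scaling behaves on these data, where many genes were called. CPM are counts relative to the TMM-scaled total over tested genes. The chi-square per degree of freedom between replicates was 1.12 for Input and 1.42 for NONO IP. Ratios of summed reads have exact conditional 95% intervals. Alternatives used DESeq2 1.42.0 and limma 3.58.1. Lengths relative to Clk2 were counts divided by RPKM. RefSeq symbols (GRCr8) matched 93.2% of the table and all 10 members, and served for names and gene order only.

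The members and gene lists were chosen with earlier results of these data known. Named were all members, Nono, up to 4 genes of smallest adjusted p per list, every listed splicing kinase and family relative, and the 2 nearest genes of each member with at least 20 reads; the named flanking genes and those said to be named later were added after their values were seen.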

Additional observations from a re-analysis of the deposited data

How the results depend on the processing

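Across 16 alternatives Dyrk1a kept its call in each (1.99 to 3.31; adjusted p between 8.9e-24 and 0.0170) and Dyrk2 in each but the RPKM analyses. The count of members called higher was 2, with 1 under log2(RPKM + 1), 1 under log2(RPKM + 0.1), 3 with library totals and 2 without any 1 library; 0 were called lower in each. Leaving out 1 library gave 2.67 to 3.07 for Dyrk1a and 0.95 to 1.59 for Dyrk2.

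Signs reversed on log2(RPKM + 1) and log2(RPKM + 0.1) for Hipk1 (−0.16 and −0.20), Hipk2 (−0.34 and −0.39) and Hipk3 (−0.43 and −0.50), and for Hipk3 also with the length offset (−0.23), with the length offset and replicate block (−0.22) and without Input replicate 1 (−0.18; without 1 library each, −0.18 to 0.41); the RPKM total is 2.38-fold larger in the NONO IP. Deviations of same-numbered libraries from their group means were hardly correlated (0.042). With spread between replicates near counting error, this cannot show whether the libraries were paired. With the replicate block Dyrk1a was at 2.85 and Dyrk2 at 1.28, with 870 genes called higher and 806 lower beside 871 and 786 without it.

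Calls over all genes moved from 29.8% higher and 26.9% lower to 41.7% and 15.2% with library totals, to 15.5% and 14.5% with DESeq2's Wald test and to 5.19% and 18.8% on log2(RPKM + 1). Higher and lower calls with log2(RPKM + 1) were 0 and 4 for the SR list, 1 and 1 for DYRK partners, 1 and 2 for HIPK partners and 1 and 1 for other CMGC kinases; DESeq2's Wald test called 1 HIPK partner and 1 other CMGC kinase higher, and 3 DYRK partners. With 3 reads at 10.2 to 15.9 CPM, depth limits the CLK genes and Dyrk1b to intervals spanning several-fold. As ratios of mean RPKM, an alternative chosen after seeing the data, Clk1 was at 0.435, Clk2 at 0.669, Clk3 at 0.589 and Dyrk1b at 0.92, the values of Clk2 and Dyrk1b lying on the other side of 1 from their ratios of scaled reads but within those ratios' intervals.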
